A study of Mus musculus with 6 samples.

Results

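The transcripts of 9 genes that were picked as having no link to the endoplasmic reticulum (ER) were followed in mouse ventricles that express an active form of ATF6α or of ATF6β. The genes are Hsbp1l1, Dnaic1, B230217C12Rik, Cd24a, Pcp4, Isyna1, Kcnj13, Cgref1 and Arhgap39, out of 21154 genes measured. They were chosen by their high signal on the ATF6β-cn arrays relative to the control arrays, so that their difference between those groups is given as a description, with no test. Each gene had 1 transcript cluster of its own on the array, a set of probes summarised as 1 value, and none shared its cluster with another gene. The rule as stated does not use the ATF6α-cn signal, the genes' relatives and partners, their genomic neighbours or the letters of their promoters. Earlier results of these data were known when the genes were picked, so that independence from the ATF6α-cn signal is not established.

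Total RNA from the ventricles of 6 mice was labelled with biotin and hybridised to Affymetrix Clariom S mouse arrays, 1 mouse per array and 2 arrays per group. All mice carried the αMHC-tTA driver, in which the cardiac α-myosin heavy chain promoter expresses the tetracycline transactivator, in a C57BL/6 background. Control mice carried the driver alone. The other groups added a transgene under a tetracycline operator-dependent αMHC promoter, encoding the N-terminal, transcriptionally active part of mouse ATF6α with a FLAG tag (ATF6α-cn, titled ATF6a-OE in the labels) or of mouse ATF6β with a Myc tag (ATF6β-cn, titled ATF6b-OE). Doxycycline (DOX) kept the transgenes silent in young mice, and the hearts came from mice aged 8 weeks that had been without DOX for 4 weeks; ATF6β-cn mice that were never given DOX died before weaning. The αMHC promoter is active in cardiac myocytes, while the RNA came from all cells of the ventricle.

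ATF6α and ATF6β are related membrane proteins of the ER that belong to the basic leucine zipper family. When unfolded proteins collect in the ER lumen they move to the Golgi, where proteases release the N-terminal part, which enters the nucleus and raises transcription of chaperones and degradation factors of the ER. Their best known binding site is the ER stress response element (ERSE), in which CCAAT, bound by NF-Y, stands 9 bases before CCACG, bound by ATF6. Further sites are ERSE-II, with ATTGG 1 base before CCACG, and the unfolded protein response element (UPRE), TGACGTGG, which resembles the cyclic AMP response element (CRE), TGACGTCA.

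Of the 9 genes, Dnaic1, Pcp4, Cd24a and Kcnj13 have proteins known from cell types other than cardiac myocytes. Dnaic1 encodes an intermediate chain of the outer dynein arm, the motor of motile cilia. Pcp4 is a small calmodulin-binding protein first described in cerebellar Purkinje cells, and Cgref1 is a secreted protein with EF-hand calcium-binding motifs. Cd24a is a heavily glycosylated, lipid-anchored surface protein of immature lymphocytes, neutrophils and epithelia, and Kcnj13 is the inwardly rectifying potassium channel of the choroid plexus and retinal pigment epithelium. Arhgap39 is a GTPase-activating protein for Rac and Cdc42, whose Drosophila counterpart acts downstream of the Robo receptor. Isyna1 is the cytosolic synthase that makes inositol phosphate from glucose 6-phosphate. Hsbp1l1 is named for its likeness to Hsbp1, which binds heat shock factors, and no role is given here for B230217C12Rik.

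Promoter sequences, 250 bases before to 50 bases after the annotated start site, were taken from RefSeq (GRCm38.p6) for the 5 of the 9 genes that the table holds, Pcp4, Dnaic1, Kcnj13, Cgref1 and Isyna1. Those of Kcnj13 (chr1:87394680-87394979, minus strand), Isyna1 (chr8:70594231-70594530, plus strand) and Dnaic1 (chr4:41569544-41569843, plus strand) are shown because they carry, in this order, the single full element found, repeats of the CCACG core, and no match. The promoter of Creld2 (chr15:88819396-88819695, plus strand), an ER target with an ERSE, stands beside them for comparison. Each is written 5′ to 3′ along its gene, with capitals for every match on either strand, so that CCACG on the other strand reads CGTGG.
Kcnj13: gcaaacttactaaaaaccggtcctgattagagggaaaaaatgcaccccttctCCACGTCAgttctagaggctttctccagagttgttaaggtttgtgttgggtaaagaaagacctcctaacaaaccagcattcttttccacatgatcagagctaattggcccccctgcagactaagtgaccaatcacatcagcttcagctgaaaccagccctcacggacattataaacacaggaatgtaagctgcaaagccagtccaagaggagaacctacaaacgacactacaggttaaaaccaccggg
Isyna1: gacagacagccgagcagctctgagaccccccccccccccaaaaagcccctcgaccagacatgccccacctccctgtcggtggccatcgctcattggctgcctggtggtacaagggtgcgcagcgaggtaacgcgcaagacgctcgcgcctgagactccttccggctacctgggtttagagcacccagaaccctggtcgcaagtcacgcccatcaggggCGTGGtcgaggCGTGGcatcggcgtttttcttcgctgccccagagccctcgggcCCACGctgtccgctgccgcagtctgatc
Dnaic1: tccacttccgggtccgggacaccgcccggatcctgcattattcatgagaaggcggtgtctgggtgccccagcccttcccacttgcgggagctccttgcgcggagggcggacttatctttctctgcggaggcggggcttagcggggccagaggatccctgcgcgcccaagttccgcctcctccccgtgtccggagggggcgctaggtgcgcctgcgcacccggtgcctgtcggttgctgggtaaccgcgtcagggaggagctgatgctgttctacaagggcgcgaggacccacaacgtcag
Creld2: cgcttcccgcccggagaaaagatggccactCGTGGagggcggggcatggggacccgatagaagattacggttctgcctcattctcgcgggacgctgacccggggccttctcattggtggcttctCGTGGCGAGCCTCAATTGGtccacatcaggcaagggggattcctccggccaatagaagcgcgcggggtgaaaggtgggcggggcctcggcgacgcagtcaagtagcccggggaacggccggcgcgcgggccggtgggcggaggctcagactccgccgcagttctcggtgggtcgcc

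No exact ERSE and no ERSE-II was found in the 5 promoters. For comparison, an ERSE stood in 8 of 14 promoters of known ER targets of ATF6 and in 0.137% of 27025 genes, and an ERSE-II in 2 of those 14 and in 0.0444% of all genes. Kcnj13 held a UPRE on the other strand, with its first printed base 198 bases before the start site, where it contains the CCACG core. A UPRE was present in 0.714% of all genes and in none of the 14 ER targets. The core CCACG alone was found in 4 of the 5, all but Dnaic1, in 13 of the 14 ER targets and in 35.5% of all genes. Pcp4 had it once, 37 bases before the start site, and Isyna1 had 3 copies, at 32 and 21 bases before and 23 bases after the start. Cgref1, whose promoter is not printed, had the most, with the same 4 copies in the overlapping windows of its 2 start sites. No CRE was found in the 5 promoters, against 2.03% of all genes. These matches describe letters in the window and were not tested for binding.

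The arrays resembled each other closely. Their median log2 signals lay between 5.58 and 5.64, and replicate arrays correlated at 0.990 to 0.991 over 22206 clusters. A background level of 5.19 was set as the 95th percentile of the signals of 1389 olfactory and vomeronasal receptor genes, most of which have no known use in the heart. Atf6b was 6.12 higher (log2) on the ATF6β-cn arrays than on the control arrays (adjusted p = 4.7e-05 from limma). Atf6 differed by −0.18 on the ATF6α-cn arrays (adjusted p = 0.850 from limma), and the sources used here do not state which part of the message its probes read. By qPCR, the authors report more Atf6 message in ATF6α-cn and more Atf6b message in ATF6β-cn hearts than in control hearts. Of 14 measured ER targets of ATF6, 10 were called higher in ATF6α-cn and 14 in ATF6β-cn, with median log2 differences of 1.84 and 1.90, respectively. A cluster was called where its adjusted p was under 0.05.

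In control ventricles 6 of the 9 genes gave a signal above the background level on both arrays. The other 3 were Pcp4, Kcnj13 and Cgref1, whose control signals did not pass it. Of all clusters, 54.7% passed it on control array 1 and 55.3% on control array 2, so the count is not read as particular to these genes. By this level, a step from no signal to signal was seen at most for these 3, while the other 6 had a baseline signal in hearts with the driver alone. The level is a 95th percentile, so a signal just above it, such as that of Cd24a, does not show that the transcript was present. Which cells of the ventricle gave these baseline signals cannot be told from whole-tissue RNA, in which fewer cells of a type and less RNA per cell cannot be told apart.

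**Figure D1:**
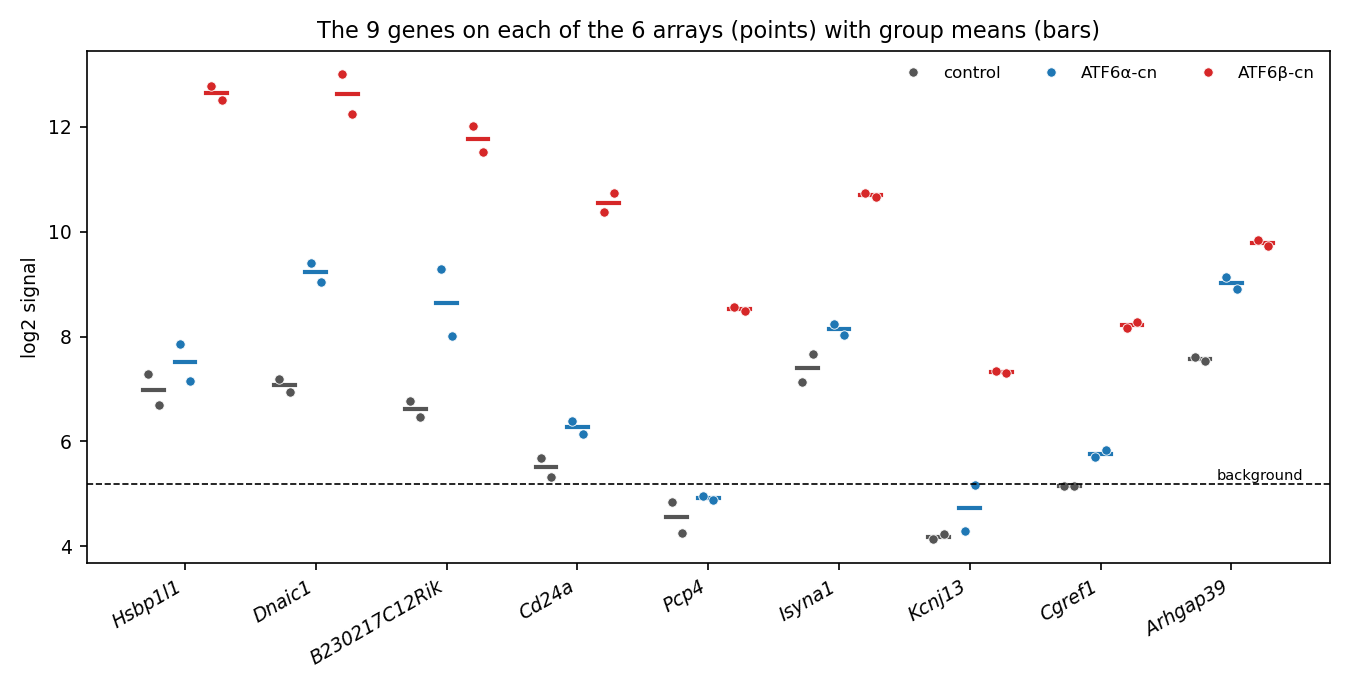
Log2 signal of the 9 genes on each of the 6 arrays (points), by group, with bars at the group means; the dashed line is the background level of 5.19. The ATF6β-cn points lie above all other points of the same gene, and the ATF6α-cn points of Dnaic1, B230217C12Rik and Arhgap39 stand clear of their control points.

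Dnaic1, the ciliary dynein chain, had log2 signals of 7.19 and 6.95 on the control arrays, 9.41 and 9.05 on the ATF6α-cn arrays, and 13.01 and 12.25 on the ATF6β-cn arrays. The 3 groups were fully separated, with the ATF6α-cn hearts in between. In ATF6β-cn hearts the signal was 5.56 higher than in control (47.0-fold), the rank 4 among all clusters. The difference in ATF6α-cn was 2.16 on the log2 scale (standard error 0.29, 95% interval 1.49 to 2.83), or 4.47-fold, and its adjusted p of 0.0519 from limma missed the threshold. Leaving out 1 array at a time gave an adjusted p between 0.0513 and 0.346.

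Hsbp1l1 read 7.29 and 6.69 in control, 7.86 and 7.16 in ATF6α-cn, and 12.78 and 12.52 in ATF6β-cn. The ATF6α-cn arrays overlapped with control, and both ATF6β-cn arrays were far above all others. With a log2 difference of 5.66 in ATF6β-cn (50.4-fold, rank 3), it had the largest response of the 9 genes. In ATF6α-cn it differed by 0.52 (95% interval −0.18 to 1.22; limma, adjusted p = 0.655), a change not detectable with 2 arrays per group.

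B230217C12Rik had control signals of 6.77 and 6.46, ATF6α-cn signals of 9.30 and 8.003, and ATF6β-cn signals of 12.02 and 11.52. The groups did not overlap, although the ATF6α-cn hearts differed more from each other than those of any other group did for this gene. Its signal was 5.15 higher in ATF6β-cn (35.6-fold, rank 6). In ATF6α-cn it was 2.03 higher (standard error 0.40, 95% interval 1.13 to 2.94), or 4.09-fold, with an adjusted p of 0.212 from limma; leaving out 1 array at a time gave differences from 1.39 to 2.68.

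Of the surface proteins, Cd24a read 5.69 and 5.33 in control, 6.39 and 6.14 in ATF6α-cn, and 10.37 and 10.73 in ATF6β-cn. Its baseline was close to the background level, and the ATF6β-cn signal exceeded the control signal by 5.04 on the log2 scale (33.0-fold). On the ATF6α-cn arrays it exceeded control by 0.76 (95% interval 0.20 to 1.32; limma, adjusted p = 0.437). The channel Kcnj13 read 4.13 and 4.24 in control, 4.29 and 5.18 in ATF6α-cn, and 7.35 and 7.31 in ATF6β-cn. Neither control nor ATF6α-cn arrays passed the background level, so no fold is given between them, and Kcnj13 was at least 4.39-fold higher in ATF6β-cn than either. Such lower bounds set the dimmer group at the background level and take no account of the spread between arrays.

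Pcp4, the calmodulin-binding peptide, gave signals of 4.84 and 4.26 in control, 4.96 and 4.88 in ATF6α-cn, and 8.57 and 8.49 in ATF6β-cn. It too was below background in both other groups, and at least 10.1-fold higher in ATF6β-cn. Cgref1, the EF-hand protein, gave 5.16 and 5.15 in control, 5.70 and 5.84 in ATF6α-cn, and 8.17 and 8.27 in ATF6β-cn. Its control signals fell just below the background level, which puts the lower bound of its response at 8.17-fold in ATF6β-cn. In ATF6α-cn that bound was 1.49-fold, a difference that was not called. The 3 groups of Cgref1 were separated with little spread, and the fit gave a difference of 0.62 in ATF6α-cn (95% interval 0.14 to 1.09; limma, adjusted p = 0.453).

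Isyna1, the inositol phosphate synthase, read 7.14 and 7.67 in control, 8.25 and 8.03 in ATF6α-cn, and 10.74 and 10.66 in ATF6β-cn. Its signal was 3.30 higher in ATF6β-cn (9.82-fold), and 0.73 higher in ATF6α-cn (95% interval 0.17 to 1.30; limma, adjusted p = 0.453). Arhgap39, the Rac and Cdc42 regulator, read 7.62 and 7.53 in control, 9.14 and 8.91 in ATF6α-cn, and 9.84 and 9.73 in ATF6β-cn. It had the smallest response to ATF6β-cn of the 9 genes, 2.21 (4.63-fold, rank 53), and the most even one between the lines. In ATF6α-cn it was 1.46 higher (standard error 0.21, 95% interval 0.97 to 1.94), or 2.74-fold, with an adjusted p of 0.0799 from limma.

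**Figure D2:**
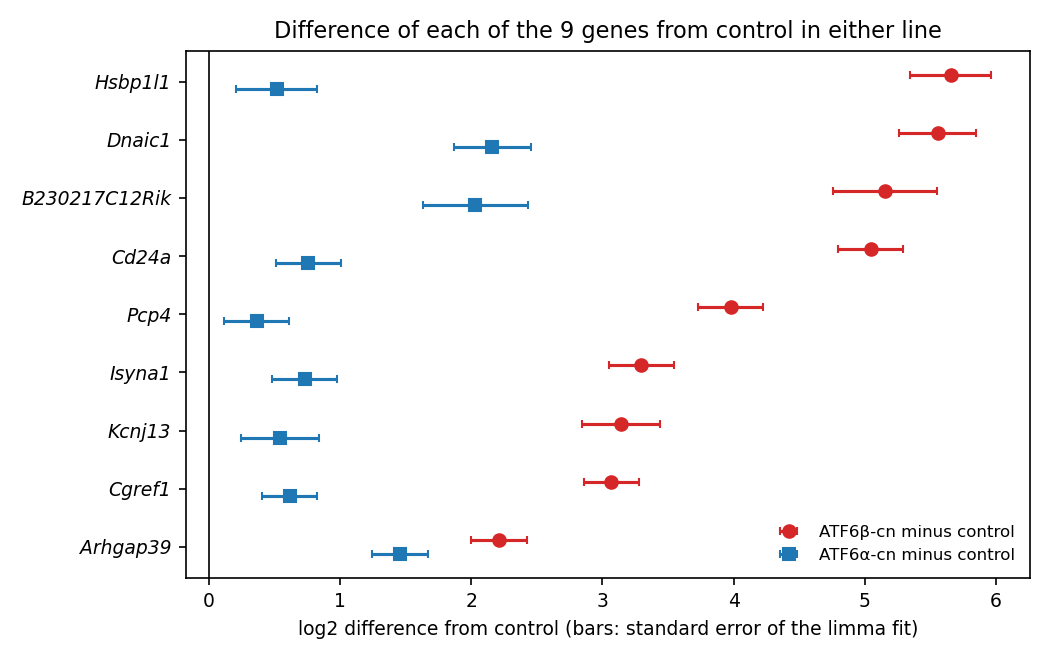
Log2 difference from control of each gene in ATF6β-cn (circles) and ATF6α-cn (squares), 2 arrays per group; bars are the standard error of the limma fit. The ATF6α-cn differences run from 0.37 to 2.16 and the ATF6β-cn differences from 2.21 to 5.66; the ATF6α-cn squares of Pcp4 and Kcnj13 compare signals below background.

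The comparison of ATF6α-cn with control asked whether genes selected on their response to ATF6β also responded to ATF6α. None of the 9 was called, against 0.0946% of all 22206 clusters called higher (21 clusters) and 0% called lower. At an unadjusted p under 0.05 from limma, 6 of the 9 passed, all higher, where 986 of all clusters were higher (4.44%) and 995 lower (4.48%). Both ATF6α-cn arrays exceeded both control arrays for 8 of the 9, with Hsbp1l1 the exception, against 17.9% of all clusters. Among the 8 are Pcp4 and Kcnj13, which were below background on all of these arrays and whose order there carries no information, which leaves 6 of 7 genes with signal. With 2 arrays per group an exact permutation test cannot go below p = 0.333. The comparison shares its control arrays with the contrast that chose the genes, which were picked with earlier results known.

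In size, the median log2 difference of the 9 genes in ATF6α-cn was 0.73, against −0.03 over all clusters. Of the 9, 3 were at least 2-fold higher, Dnaic1, B230217C12Rik and Arhgap39, against 220 of all 22206 clusters (0.991%). In ATF6β-cn the median of the 9 genes was 3.98, or 3.33 with Pcp4, Kcnj13 and Cgref1 at their lower bounds, against −0.02 over all clusters. For the 7 genes with signal on an ATF6α-cn array, the ATF6α-cn difference amounted to between 9.19% (Hsbp1l1) and 65.8% (Arhgap39) of the ATF6β-cn difference on the log2 scale, with a median of 22.2%. Both ATF6β-cn arrays were above both ATF6α-cn arrays for all 9 genes. The log2 difference between the lines ran from 0.76 for Arhgap39 to 5.14 for Hsbp1l1, with a median of 3.12. Both the order of the arrays and this difference are descriptions, since they rest on the ATF6β-cn arrays that chose the genes. No share over all clusters is given for the order. The authors state that the transgenes were not expressed at equal levels and that the factors could not be compared directly. These percentages and differences thus describe the lines and not the strength of either factor.

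The rule behind the genes states no threshold. Another 44 clusters differed between ATF6β-cn and control by at least as much as Arhgap39, among them known ER targets such as Sdf2l1 and the transgene's own Atf6b. Their median log2 difference in ATF6α-cn was 1.09, with 10 of the 44 called, and the ATF6α-cn difference amounted to 37.7% of the ATF6β-cn difference at the median. That share covers all 44, also Atf6b and any below background. The like share over all 9 genes, with none left out for background, was 20.1%. Blvra (2.23), Ccdc134 (2.23) and Fbn2 (2.24) lay just above Arhgap39 in their ATF6β-cn log2 difference, without being among the 9.

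The relatives and partners of each gene were measured to see whether a response extended to the rest of its pathway. Of all clusters, 0.793% were called higher in ATF6β-cn and 0.306% lower. Across 8 lists, 2 genes were called higher in ATF6β-cn, Pak3 and Ppip5k1, none was called lower, and none was called in either direction in ATF6α-cn. Of the 165 genes in these lists, an unadjusted p under 0.05 from limma was reached by 12 with a higher and 16 with a lower signal in ATF6β-cn (7.27% and 9.70%, against 6.72% and 7.14% of all clusters). In ATF6α-cn 7 and 4 reached it (4.24% and 2.42%, against 4.44% and 4.48%).

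None of the 29 measured genes of axonemal dyneins and their assembly was called in either line. Dnaic2, the partner intermediate chain of the outer arm, read 3.73 and 3.66 in control and 3.94 and 3.75 in ATF6β-cn, below background throughout. Ttc25, a docking factor of the outer arm, and Dnah1, a heavy chain of the inner arm, were likewise below background on all 6 arrays, so that no difference is given for them. Of the 29 genes, 7 were above background on both control arrays.

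For Pcp4, none of 22 genes of calmodulin and its partners was called. Pcp4l1, its closest relative, differed by −0.40 in ATF6α-cn and 0.09 in ATF6β-cn, and the largest ATF6β-cn differences were those of the calcineurin regulator Rcan1 (0.83, adjusted p = 0.481 from limma) and the kinase Camk2a (0.70, adjusted p = 0.209 from limma). Rcan1 read 10.66 and 10.74 in control and 11.77 and 13.36 in ATF6α-cn, where it differed by 1.87 with a wide spread (adjusted p = 0.301 from limma). For Cgref1, none of 23 growth arrest and related genes was called. Mcfd2, an EF-hand protein that carries clotting factors out of the ER with Lman1, differed by 0.75 in ATF6β-cn (adjusted p = 0.244 from limma). The largest fitted differences in ATF6β-cn were those of Eda2r and Gadd45a. Eda2r, a receptor of the tumour necrosis factor family, was below background there. Its lower bound was 1.66-fold higher in control (adjusted p = 0.127 from limma). Gadd45a, a growth arrest gene, differed by −0.86 (adjusted p = 0.215 from limma). In ATF6α-cn the largest fitted difference was that of Btg2, an antiproliferative gene (2.01, adjusted p = 0.427 from limma).

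Among 14 CD24 ligands and partners none was called, and 3 were above background on both control arrays. Selplg, the main ligand of P-selectin, differed by 0.82 in ATF6β-cn (adjusted p = 0.296 from limma), while Sele, E-selectin, was below background on all 6 arrays. Of 16 inward rectifiers and their subunits none was called either. In ATF6β-cn the largest fitted differences were those of Abcc8, a subunit of ATP-sensitive channels (0.93, adjusted p = 0.301 from limma), and Kcnj14. Kcnj14 was below background in control, with a lower bound of 1.13-fold higher in ATF6β-cn (adjusted p = 0.148 from limma).

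None of 17 measured heat shock factors and targets was called. Hsbp1, the relative of Hsbp1l1, differed by 0.26 in ATF6α-cn and 0.27 in ATF6β-cn. The mitochondrial chaperone Hspd1 read 15.84 and 15.77 in control and 14.88 and 14.64 in ATF6β-cn, a difference of −1.04 whose adjusted p of 0.0676 from limma missed the threshold, and the small heat shock protein Hspb1 differed by −0.70 (adjusted p = 0.386 from limma).

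The list of Robo receptors, Slit ligands and Rac effectors (19 genes) held 1 called gene. Pak3, a kinase activated by Rac and Cdc42 and known mainly from neurons, read 4.17 and 4.19 in control, 3.72 and 3.86 in ATF6α-cn, and 8.43 and 8.55 in ATF6β-cn. It was below background in both other groups and at least 9.83-fold higher in ATF6β-cn than in control (fitted log2 difference 4.31, adjusted p = 5.5e-05 from limma). No difference between ATF6α-cn and control is given for Pak3, since both were below background. Its fitted difference between the lines passed the test as well (4.70, adjusted p = 4.1e-05 from limma). Pak3 was known from earlier results when the list was drawn up. Slit3, a ligand of Robo receptors, differed by 1.22 in ATF6β-cn (adjusted p = 0.0897 from limma).

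Of 25 measured genes of inositol synthesis, transport and use, Ppip5k1 was called. It makes diphosphoinositol pentakisphosphate and related inositol pyrophosphates, and read 5.42 and 5.32 in control, 5.86 and 6.30 in ATF6α-cn, and 6.78 and 6.89 in ATF6β-cn. The ATF6β-cn difference was 1.46 (adjusted p = 0.0257 from limma) and the ATF6α-cn difference 0.71 (adjusted p = 0.440 from limma). When any 1 of these 4 control and ATF6β-cn arrays was left out, the limma adjusted p rose to between 0.113 and 0.193.

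**Figure D3:**
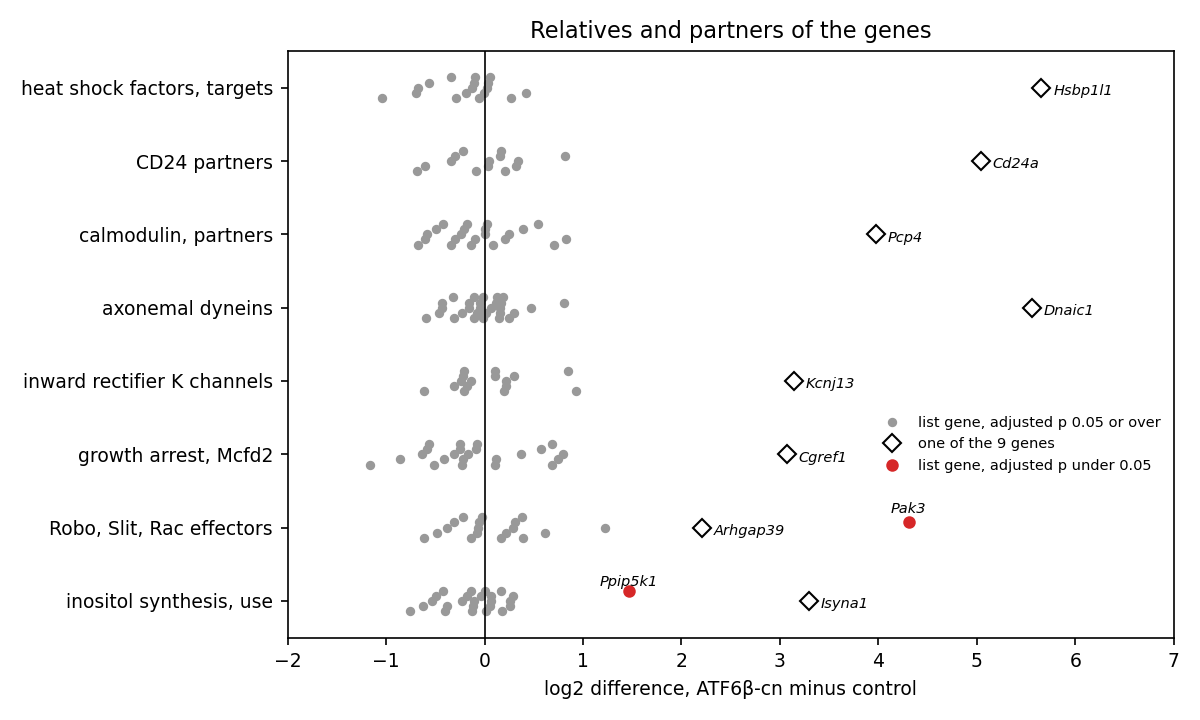
Log2 difference between ATF6β-cn and control for the genes of 8 lists of relatives and partners (points; red where the adjusted p was under 0.05), with the gene that each list belongs to (diamond). Apart from Pak3 (4.31), the list genes lie between −1.16 and 1.46, below all diamonds; differences are drawn as fitted, also for genes below background.

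Cell types, among them those named for Dnaic1, Pcp4, Cd24a and Kcnj13, were looked for by their markers. No marker of 16 lists was called in either line by limma, and of 155 markers 18 in ATF6β-cn (11.6%, against 13.9% of all clusters) and 12 in ATF6α-cn (7.74%, against 8.92%) had an unadjusted p under 0.05. Of 15 measured markers of motile ciliated cells, 2 were above background on both control arrays, Ccdc40 (12.93 and 13.09) and Ccdc39 (5.81 and 5.21). Ccdc40 differed by −0.01 in ATF6β-cn, and Ccdc39 was below background on both ATF6β-cn arrays. Mcidas, Dnah9, Dnah11, Hydin, Rsph1 and Tekt1 were below it on all 6 arrays. Of 10 markers of choroid plexus and retinal pigment epithelium, 1 passed the background level on both control arrays, Slc4a5 (5.61 and 6.13). Ttr, Folr1, Otx2 and Rpe65 were below it on all arrays. Epithelial markers behaved likewise, with 1 of 10 above background and Epcam, Krt18 and Krt19 below it on all arrays. Of the Purkinje cell markers 2 of 10 passed, Car8 (11.40 and 11.25 in control) and Itpr1 (8.95 and 8.87). They differed by −0.03 and 0.81 in ATF6β-cn, respectively. Of the neuronal markers 4 of 10 passed, Snap25, Stmn2, Syp and Map2. Calb1, Rbfox3 and Nefl were below background on all arrays. B cells and neutrophils are among the blood cells that carry CD24. None of 7 measured B cell markers and none of 10 neutrophil markers passed on both control arrays. Of the other blood cell lists, 2 of 7 T cell, 2 of 8 erythroid and all 10 macrophage markers did.

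All 12 cardiac muscle markers were above background, with median log2 differences of 0.02 in ATF6α-cn and 0.01 in ATF6β-cn. The differences ran from −0.17 to 0.22 in ATF6α-cn and from −0.65 (Mybpc3) to 0.03 in ATF6β-cn. Tnni3 read the same 17.98 on ATF6α-cn array 1 and on both ATF6β-cn arrays. Whether such bright clusters were at the top of their range was not tested. The summed linear signal of 9 fibroblast and matrix markers was 248344 to 249364 on the control arrays, 240954 to 263306 on the ATF6α-cn arrays and 356139 to 445412 on the ATF6β-cn arrays, and their log2 differences had medians of 0.53 (ATF6α-cn) and 0.61 (ATF6β-cn). That of 10 macrophage markers was 10488 to 11955, 13645 to 13969 and 12407 to 21744. All 9 fibroblast and 10 macrophage markers were above background on both control arrays, and the part of either in the signals of the 9 genes was not tested.

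The genes nearest to the 9 genes were compared to see whether the difference was shared along the chromosome. By their order in RefSeq (GRCm38.p6), 38 neighbours with a cluster of their own were taken, of which 2 overlap a gene of the group, Enho with Dnaic1 and Gigyf2 with Kcnj13. None of the 38 was called in either line by limma, while 7 in ATF6β-cn (18.4%) and 3 in ATF6α-cn (7.89%) had an unadjusted p under 0.05, against 13.9% and 8.92% of all clusters. Of the 38, 9 were below background on all 6 arrays. Their median log2 difference was −0.12 in ATF6β-cn, from −1.08 (Rtn4ip1, beside Cd24a, adjusted p = 0.0642 from limma) to 1.01 (Bace2, beside Pcp4). In ATF6α-cn the median was −0.09 and the highest difference 0.87 (Igsf5, beside Pcp4). The lowest was that of Fbxo47, beside B230217C12Rik, which was below background on both ATF6α-cn arrays. Its lower bound was 1.42-fold higher in control (adjusted p = 0.195 from limma). Enho, a secreted peptide gene, differed by 0.67 in ATF6β-cn (adjusted p = 0.208 from limma), and Gigyf2, a translational repressor, by 0.19 (adjusted p = 0.815 from limma).

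**Figure D4:**
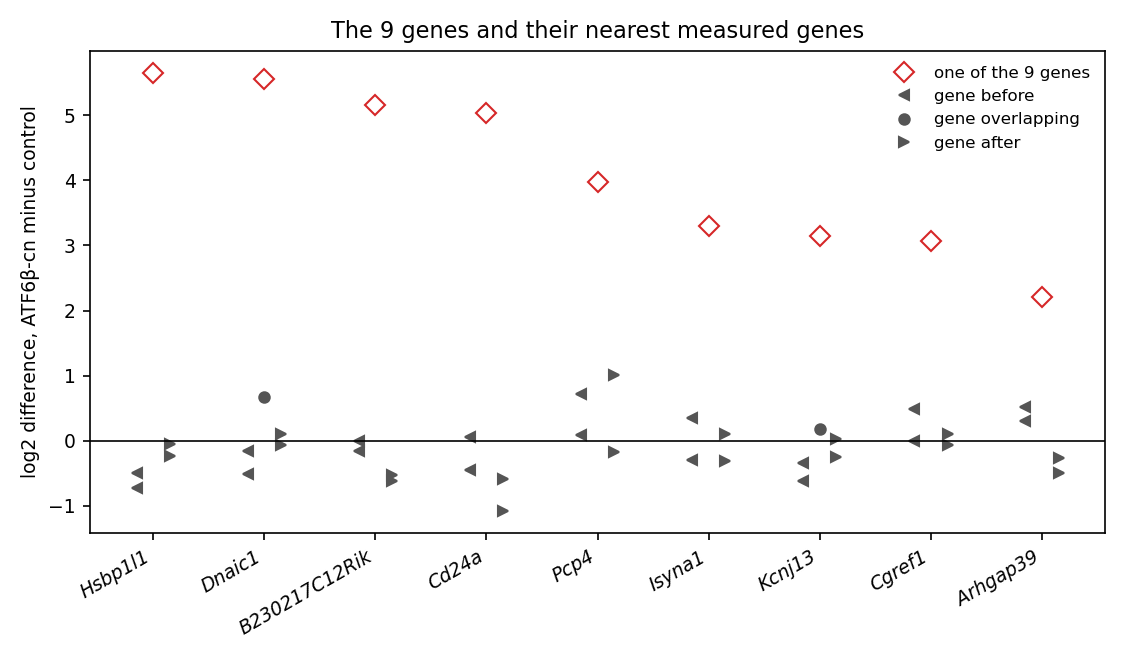
Log2 difference between ATF6β-cn and control for the 9 genes (diamonds) and their nearest measured genes before (left triangles), after (right triangles) or overlapping them (circles) in RefSeq order. The neighbours lie between −1.08 and 1.01 and the 9 genes between 2.21 and 5.66.

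The genes whose pattern over the 6 arrays was most like the mean of the 9 centred profiles were sought among 405 other clusters at least 2-fold higher in ATF6β-cn than in control. Gm6568, annotated as a Dnajb9 pseudogene, was closest (Pearson's r = 0.999). It differed by 2.58 in ATF6β-cn and 0.71 in ATF6α-cn, and Dnajb9 itself, not among the 10 closest, by 2.94 and 1.19. Whether the Gm6568 probes also read Dnajb9 was not tested. Next came Ficd, which modifies the ER chaperone BiP (0.997), Pdk3, a pyruvate dehydrogenase kinase (0.996), and Eps8l2 (0.995). Tmem184c (0.994) and Spcs3, a subunit of the signal peptidase (0.993), followed. Clptm1l, Pemt and Snap23 (each 0.990) and Mydgf (0.989) completed the 10 closest. Pdk3 differed by 5.33 in ATF6β-cn and 1.40 in ATF6α-cn, and the other 9 by 1.33 to 2.58 and 0.25 to 0.71. The correlations run over 6 arrays in 3 groups, share all arrays with the choice of the genes, and are given as a description.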

How the data were processed

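Ventricular RNA of 6 mice was measured on Affymetrix Clariom S arrays, 2 per group. The authors deposited log2 signals that they had normalized between arrays. Affymetrix Expression Console is the tool in the submitters' processing notes; its summary method and version were not given in the sources used here. Gene symbols came from 2 deposited sheets joined by probe set; their signed fold changes and p-values, the authors' own comparisons, were not used. Of 28846 probe sets, 6640 control probe sets were left out and 22206 clusters were tested with no filter; 836 that match several genes and 3 without a symbol entered no gene list.

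A single limma fit (version 3.58.1, R 4.3.3) of all 6 arrays gave each group its own mean, with 3 residual and 5.63 prior degrees of freedom; p-values were Benjamini-Hochberg adjusted over all clusters. The calculation was tested on simulated data. Array signals carry no read depth, so precision is limited by the number of arrays. Motifs were searched on both strands of RefSeq promoters.

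The 9 genes, the lists and the tests were chosen with earlier results of these data known. Named are the 9 genes, Atf6 and Atf6b, the called genes and otherwise the 2 with the largest change in ATF6β-cn of each list, 4 relatives, the neighbours with the largest change or an overlap, and the 10 genes most alike; other genes named were chosen after their values were seen. A further list is not reported here. Alternatives were quantile normalization, centring, a filter on low values, array weights, a variance trend with robust fitting, a block for the replicate number, fits on only the 4 arrays compared, leaving out each array, the Student t-test, and 1 mismatch in a motif.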

Additional observations from a re-analysis of the deposited data

Results flagged for a closer look

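Among 349 relatives, partners, neighbours and markers tested, none of them among the 9 genes, Pak3 alone differed between the lines at an adjusted p under 0.05. Its log2 signal was 4.70 higher in ATF6β-cn than in ATF6α-cn (adjusted p = 4.1e-05 from limma), with both ATF6β-cn arrays above all 4 others. Its signals on those 4 arrays were below the background level, so that the size is known only as a lower bound, at least 9.83-fold over control. Pak3 was already known from earlier results of these data when its list was made.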

How the results depend on the processing

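The log2 differences of the 9 genes kept their sign under every alternative run for them, and no result reversed. With 1 array left out at a time, their median in ATF6β-cn ran from 3.69 to 4.27 and their median difference between the lines from 2.87 to 3.58, each array being 1 of 2 in its group. Of the 9 genes, 3 instead of 0 were called in ATF6α-cn with a variance trend and a robust fit: Dnaic1 (adjusted p = 0.00418), Arhgap39 (0.0220) and B230217C12Rik (0.0487). With the replicate number as a block 1 was called, Dnaic1 (0.0375), all from limma. Arrays of the same number did not deviate together over all clusters (correlations −0.0237 to 0.0194), which gave no sign of pairing. The labels do not say whether mice of the same number were paired. The block for the replicate number gave 27 calls between the lines instead of 60.

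The counts of calls depended on the variance model and on single arrays. In ATF6α-cn against control 21 clusters were called, 61 with the trend and robust fit, 13 on the 4 arrays alone, 0 by the Student t-test after adjustment, and 9 to 13 with 1 array left out. In ATF6β-cn against control 244 were called, 686 with the trend and robust fit, 382 after a filter on low values, 0 by the Student t-test, and 41 to 190 with 1 array left out. Between the lines 60 were called, 257 with the trend and robust fit, 38 after quantile normalization, 36 on the 4 arrays alone, 0 by the Student t-test, and 9 to 36 with 1 array left out. The 2 genes called in the lists in ATF6β-cn became 7 with the trend and robust fit, 0 by the Student t-test and 1 to 2 with 1 array left out, where Ppip5k1 was lost on leaving out any control or ATF6β-cn array. In ATF6α-cn 0 to 1 list gene was called, the 1 without ATF6α-cn array 1. Of the neighbours, 1 instead of 0 was called in ATF6β-cn after the filter and with the trend and robust fit. With 1 mismatch allowed, 4 instead of 1 of the 5 promoters held an ERSE, ERSE-II or UPRE; 16.2% of all promoters then held a UPRE. Where the cause of a changed count is not in the number of arrays or clusters, it was not tested. Signals below the background level of 5.19 limit Pcp4, Kcnj13, Cgref1 and Pak3 to lower bounds.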
